A study of Homo sapiens with 15 samples.

Results

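Transcriptional readouts of ERK signalling were followed in A2058 cells, a human malignant melanoma line, after 8 hours with inhibitors of mitochondrial complex I. The genes were DUSP4, DUSP6, SPRY2, SPRY4, SPRED1, ETV4, ETV5, CCND1, PHLDA1 and MYC, chosen because they are well-known transcriptional targets of ERK, and a probe belonged to one of them when its RefSeq accession mapped to that symbol. They are 10 genes, among 26826 features that could be tested. A2058 is known to carry an activating BRAF mutation, which the labels do not state and which expression arrays do not test. All groups were grown in Eagle's medium with 10% fetal bovine serum, so growth factors were present in every culture, vehicles included. The groups were NP at 3 µM, its solvent DMSO, MET (metformin) at 5 mM, PHEN (phenformin) at 50 µM, and W, the water control of MET and PHEN, each on 3 one-colour Agilent arrays, one per experiment. The labels write NP, the series title names neopetasin, and the study's text describes the closely related petasin at that dose, so the abbreviation is kept here. Only 1 cell line, 1 time point and 1 dose of each compound were measured.

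In the pathway, receptors load RAS with GTP, RAS activates the RAF kinases, RAF phosphorylates MEK, and MEK phosphorylates ERK. Active ERK enters the nucleus and raises a short list of genes, many of which feed back on the pathway. DUSP4 and DUSP6 are phosphatases that dephosphorylate ERK, SPRY2, SPRY4 and SPRED1 restrain signalling at the level of RAS and RAF, ETV4 and ETV5 are ETS transcription factors, CCND1 is the G1 cyclin that activates CDK4 and CDK6, PHLDA1 is an intracellular protein with a pleckstrin homology-like domain, and MYC is a transcription factor of growth genes. In melanoma with mutant BRAF the level of these transcripts is widely used to read how active ERK is. The arrays measure steady-state RNA, not phosphorylated ERK.

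None of the 10 genes was called changed by any compound. A call required a difference of at least 1.5-fold and an adjusted p of at most 0.05 in limma, with the p-values adjusted over all 26826 features. Calls over all features were as few: 10 (0.0373%) with NP, 0 (0%) with MET and 7 (0.0261%) with PHEN, so a count of 0 among 10 genes does not set them apart. At an unadjusted p of 0.05 or less, 0 of 10 genes passed with NP, 1 with MET (ETV4) and 0 with PHEN, beside 4.69%, 2.46% and 2.35% of all features. By the paired test and threshold of the study's methods, with unadjusted p-values, 0 of the 10 genes passed in each comparison, beside 214 (0.798%), 124 (0.462%) and 168 (0.626%) features over the whole table. The arrays of compound and vehicle did not overlap for 0 genes with NP, 1 with MET and 1 with PHEN, beside 6.41%, 5.74% and 8.12% of all features.

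The intervals bound what could have been missed. The 95% interval of the difference lay wholly within 1.5-fold of no change for 9 of 10 genes with NP (all but SPRY4), 8 of 10 with MET (all but SPRY4 and MYC) and 8 of 10 with PHEN (all but SPRY4 and ETV5). The same held for 53.4%, 53% and 55.2% of all features. The median log2 difference of the 10 genes was -0.03 with NP, -0.03 with MET and 0.07 with PHEN, beside -0.01, 0.00 and -0.03 over all features. Single genes ranged from -0.19 to 0.20 with NP, from -0.24 to 0.32 with MET and from -0.04 to 0.19 with PHEN.

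**Figure D1:**
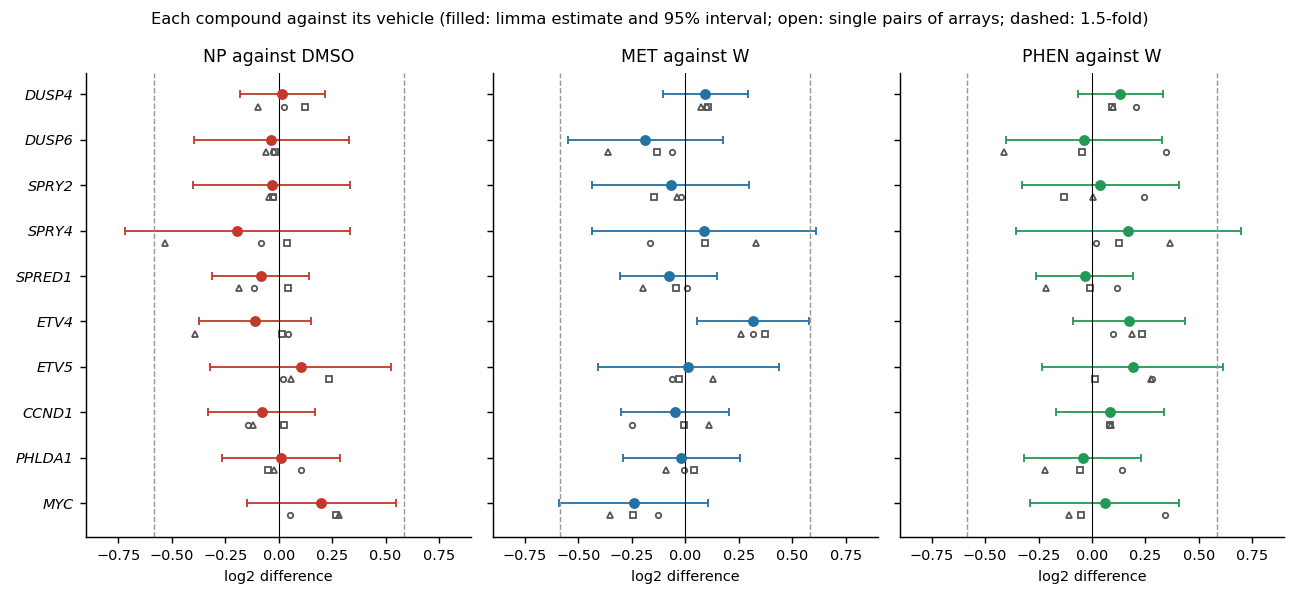
Log2 difference of each of the 10 ERK output genes (rows) for NP against DMSO, MET against W and PHEN against W. Filled points and bars are limma estimates with 95% intervals, open symbols are the differences of single pairs of arrays with the same replicate number, and dashed lines mark 1.5-fold; every estimate lies inside the dashed lines and only ETV4 with MET has an interval that leaves out 0.

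All values below are log2 signals relative to the 75th percentile of their own array, so 0 is the level of a probe at that percentile. Levels are compared within a probe only. Every one of the 10 genes was well above background on all 15 arrays, and no spot was saturated. DMSO and NP lay on other slides than W, MET and PHEN, so the solvents and the slides cannot be told apart. In bulk RNA a change in the share of cells that express a gene and a change in RNA per cell cannot be told apart either.

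DUSP6, the ERK phosphatase that is among the most direct readouts of the pathway, differed from its vehicle by less than the arrays of a group differed among themselves. Its values were 5.35, 5.36 and 5.20 in DMSO and 5.32, 5.35 and 5.14 with NP. In W they were 4.88, 5.24 and 5.59, with MET 4.81, 5.11 and 5.22, and with PHEN 5.22, 5.20 and 5.18. The widest scatter was thus among the water arrays themselves, and the groups overlapped in all 3 comparisons. The log2 difference was -0.03 (SE 0.16) with NP, -0.19 (SE 0.16) with MET and -0.04 (SE 0.16) with PHEN, each with an adjusted p of 1. With NP and with MET all 3 pairs were below 0, which was so for 18.8% and 20.2% of all features.

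DUSP4, a second phosphatase that acts on ERK, had the smallest SE of the 10 in limma. That SE rests on all 5 groups and is not the spread of the pairs in a single comparison. It was 4.39, 4.43 and 4.48 in DMSO against 4.41, 4.55 and 4.38 with NP, a log2 difference of 0.02 (SE 0.09). In W it was 4.71, 4.77 and 4.90, with MET 4.81, 4.88 and 4.98, and with PHEN 4.92, 4.87 and 5.00. All 3 pairs were higher with MET (0.09) and with PHEN (0.13), and both 95% intervals held 0, with upper ends at 0.29 and 0.33. Being higher in all 3 pairs held for 22.2% of all features with MET and 12.2% with PHEN. Of the 10 genes it held for 2 with MET, DUSP4 and ETV4, while 3 were lower in all 3 pairs. With PHEN it held for 5 of 10 (DUSP4, SPRY4, ETV4, ETV5 and CCND1), and 0 were lower in all 3. The genes share arrays and the same water controls, and these counts were not tested.

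Of the inhibitors of RAS and RAF signalling, SPRY2 and SPRED1 had estimates between -0.08 and 0.04. SPRY2 was 4.67, 4.46 and 4.27 in DMSO and 4.65, 4.43 and 4.22 with NP, so each treated array sat just under its own control, by 0.03, 0.03 and 0.04. The spread between experiments was larger than the difference within them. In W SPRY2 was 4.14, 4.66 and 4.45, with MET 4.13, 4.52 and 4.41, and with PHEN 4.39, 4.53 and 4.45. SPRED1 was 2.02, 1.73 and 2.04 in DMSO and 1.90, 1.78 and 1.86 with NP. It was lower on every water array, at 1.06, 1.15 and 1.37, and stayed there with MET (1.07, 1.11 and 1.17) and with PHEN (1.18, 1.14 and 1.16). The log2 difference of SPRED1 was -0.08 with NP, -0.08 with MET and -0.04 with PHEN (SE 0.10 each).

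SPRY4 had the largest SE of the 10 in limma. It was 0.43, 0.46 and 0.05 in DMSO and 0.35, 0.50 and -0.48 with NP. The log2 difference of -0.19 (SE 0.24) rested on replicate 3, whose pair differed by -0.53; without replicate 3 it was -0.02. In W SPRY4 was 0.39, 0.35 and 0.36, with MET 0.23, 0.44 and 0.70, and with PHEN 0.41, 0.47 and 0.73. The PHEN arrays did not overlap the water arrays, and the difference of 0.17 (SE 0.24) did not pass the test. A second SPRY4 probe, for the transcript NM_001293289, was above background on 14 of 15 arrays and gave -0.39 (SE 0.39) with NP, 0.17 with MET and -0.29 with PHEN. For PHEN the 2 probes thus had opposite signs.

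**Figure D2:**
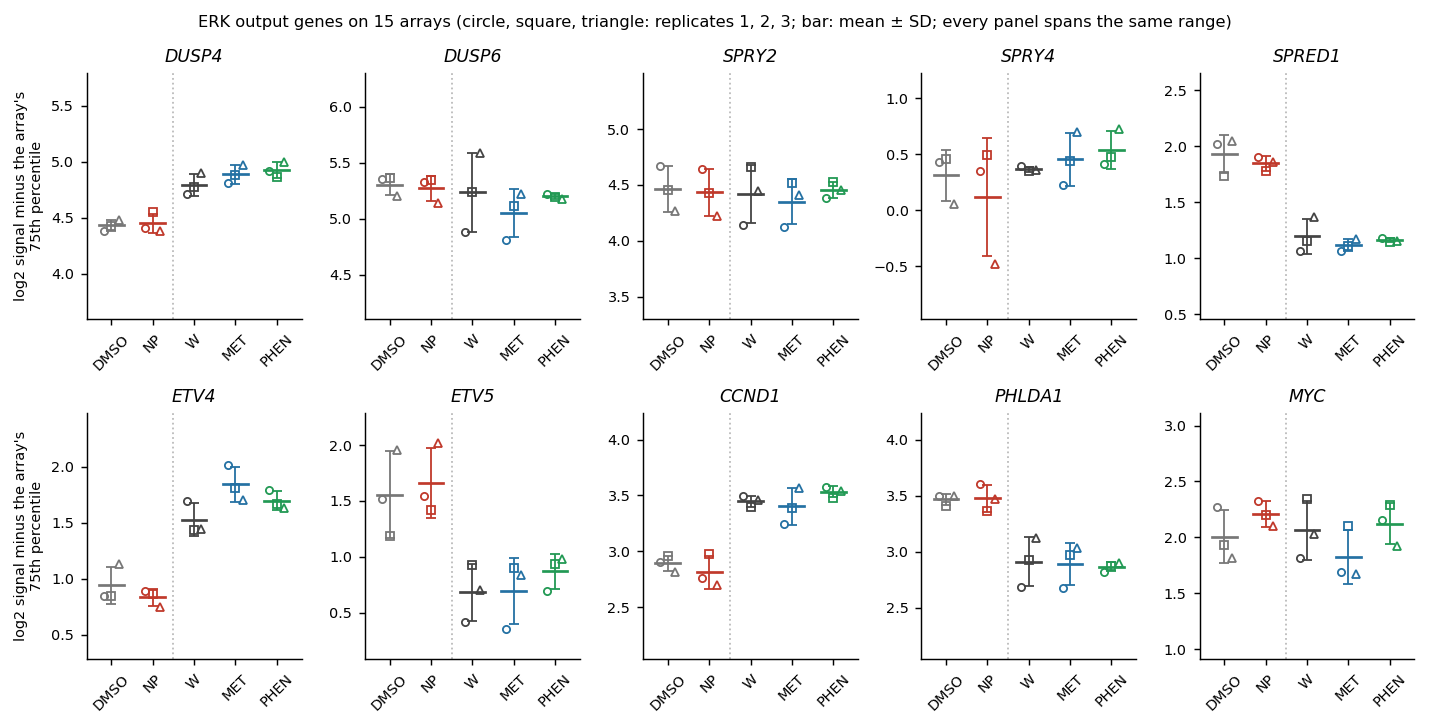
Log2 signal minus the array's 75th percentile for each ERK output gene in the 5 groups. Circles, squares and triangles are replicates 1, 2 and 3, bars are the mean ± SD of 3 arrays, every panel spans the same range, and the dotted line separates the 2 sets of slides; treated arrays lie among or beside those of their vehicle, while DUSP4, SPRED1, ETV4, ETV5, CCND1 and PHLDA1 step at the dotted line.

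ETV4, an ETS factor whose transcript depends on ERK, gave the only difference between a compound and its vehicle among the 10 with an unadjusted p under 0.05. It was 1.70, 1.44 and 1.45 in W and 2.01, 1.81 and 1.71 with MET. All MET arrays lay above all water arrays, and the pairs differed by 0.32, 0.37 and 0.26. The log2 difference was 0.32 (SE 0.12, 95% interval 0.06 to 0.58), with an unadjusted p of 0.0222 and an adjusted p of 1 in limma. With PHEN it was 1.79, 1.67 and 1.63, a difference of 0.17 (SE 0.12) that was above 0 in 3 of 3 pairs. With NP it was 0.89, 0.86 and 0.74 against 0.85, 0.85 and 1.13 in DMSO, a difference of -0.11 (SE 0.12). The NP effect minus the MET effect was -0.43 (SE 0.17, unadjusted p 0.0277, adjusted p 1).

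ETV5, the related ETS factor, overlapped its vehicle in all 3 comparisons. With MET it was 0.35, 0.90 and 0.84 against 0.41, 0.93 and 0.71 in W, a log2 difference of 0.01 (SE 0.19). With PHEN it was 0.69, 0.94 and 0.98, a difference of 0.19 (95% interval -0.23 to 0.61). With NP it was 1.54, 1.42 and 2.02 against 1.52, 1.19 and 1.96 in DMSO, a difference of 0.10 with 3 of 3 pairs above 0, as in 14.3% of features. In both solvents the experiments scattered more than the treatments did.

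MYC was higher with NP and lower with MET in every pair of arrays, by amounts that did not pass the test. Such signs were seen in 14.3% of all features for NP and in 20.2% for MET. With NP it was 2.32, 2.20 and 2.10 against 2.27, 1.93 and 1.82 in DMSO, and the pairs differed by 0.05, 0.27 and 0.28. With MET it was 1.69, 2.10 and 1.68 against 1.82, 2.34 and 2.03 in W, and the pairs differed by -0.13, -0.24 and -0.35. The groups overlapped in both comparisons. The log2 difference was 0.20 (SE 0.16) with NP and -0.24 (SE 0.16) with MET. With PHEN MYC was 2.16, 2.29 and 1.92, a difference of 0.06 (SE 0.16) that was higher in 1 of 3 pairs. MYC is printed as 10 spots on each array, and the within-array SD of their log2 signals had a median of 0.07, below the SD of 0.11 to 0.27 between the 3 arrays of a group.

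CCND1, which couples ERK activity to entry into S phase, differed from its vehicle by no more than 0.08 on the log2 scale in any comparison. It was 2.91, 2.95 and 2.82 in DMSO and 2.76, 2.98 and 2.70 with NP, a log2 difference of -0.08 (SE 0.11). In W it was 3.49, 3.40 and 3.46, with MET 3.25, 3.39 and 3.57 (-0.05), and with PHEN 3.57, 3.48 and 3.54 (0.08). Its 10 spots per array had a median within-array SD of 0.05. PHLDA1 was 3.50, 3.41 and 3.50 in DMSO, 3.60, 3.36 and 3.48 with NP, and between 2.68 and 3.12 on the 9 arrays of W, MET and PHEN. Its log2 differences of 0.01, -0.02 and -0.04 (SE 0.12 each) were the smallest set among the 10.

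A pair of arrays stood apart from the rest in the number of probes above background. W replicate 1 and MET replicate 1 had 45044 and 44451 probes well above background, against 25804 to 37924 on the other 13. Without both arrays, an alternative chosen after the data had been seen, ETV4 with MET was 0.32 and 0 genes were called in any of the 3 comparisons. The median log2 difference of the 10 genes with MET was 0.01 without them. Under PHEN the signs of SPRY2 (-0.16) and MYC (-0.13) turned. DMSO replicate 3 and NP replicate 3, on a slide of their own, had the lowest 75th percentile intensities, 144.4 and 145.5. The other arrays had 222.0 to 274.6.

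The 10 genes varied together only in part over the arrays. After each set of slides was centred, Pearson r over the 15 arrays had a median of 0.18 among the 45 pairs of genes, with 32 pairs above 0. The points share arrays, depth and scaling, so these values are descriptions. They include W replicate 1 and MET replicate 1. Among the arrays of W, MET and PHEN, those held the lowest values of DUSP6, PHLDA1 and SPRY2. The highest r was 0.75, between DUSP6 and PHLDA1, followed by 0.74 between SPRY2 and MYC. The lowest was -0.63, between DUSP6 and ETV4, and the ETS pair ETV4 and ETV5 had an r of -0.21. The features outside the 10 whose values were most like the mean of the standardized genes were RCC2 (r = 0.91), FDPS (0.90), DPH2 (0.90), GMPS (0.89) and CDC42SE1 (0.89), of 13859 ranked over the 15 arrays.

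The promoters of DUSP6 and PHLDA1 are printed because this pair had the highest r among the 10 genes over all 15 arrays. Each run holds the 250 bases upstream of the RefSeq transcription start on GRCh38.p14, read 5′ to 3′ on the gene's own strand, with matches to the ETS core in capitals. The coordinates are chr12:89352502-89352751, minus strand, for DUSP6 and chr12:76031777-76032026, minus strand, for PHLDA1.
DUSP6: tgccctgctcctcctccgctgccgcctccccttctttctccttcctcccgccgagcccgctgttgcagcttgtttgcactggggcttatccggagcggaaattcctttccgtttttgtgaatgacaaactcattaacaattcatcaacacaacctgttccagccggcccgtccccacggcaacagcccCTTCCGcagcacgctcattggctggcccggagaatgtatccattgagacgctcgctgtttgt
PHLDA1: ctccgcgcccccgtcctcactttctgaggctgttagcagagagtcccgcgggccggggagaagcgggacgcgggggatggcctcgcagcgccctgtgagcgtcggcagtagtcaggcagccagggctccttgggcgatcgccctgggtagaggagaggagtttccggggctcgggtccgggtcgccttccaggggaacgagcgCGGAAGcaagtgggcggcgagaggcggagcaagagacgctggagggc

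The ETS core searched was CGGAAG on either strand, and each window held 1 match, beginning at position -62 from the start in DUSP6 and -47 in PHLDA1. Of 35116 promoter windows of the same length, 16.5% held it. No match to the AP-1 motif TGANTCA, the CRE TGACGTCA, the E-box CACGTG or the CArG box was present in either run, and these were found in 6.57%, 1.65%, 6.34% and 1.16% of all windows. The windows of SPRY2 (3 starts), SPRY4 and SPRED1 held none of the 5 motifs. Only these 5 of the 10 genes were searched, and DUSP4, ETV4, ETV5, CCND1 and MYC were not. A match is a string of letters and not a bound site.

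The rest of the pathway was read through lists of related genes, and 0 genes of any list were called with any compound. Of 24 other genes that ERK signalling raises, 6 were above 0 with NP, 13 with MET and 12 with PHEN. Their medians were -0.08, 0.03 and 0.00, beside -0.01, 0.00 and -0.03 over all features. The largest differences were FOS with NP (-0.25, SE 0.16), SLC4A7 with MET (-0.27, SE 0.25) and SPRED2 with PHEN (0.24, SE 0.16). Of the 6 genes that ERK signalling holds down, 1 was above 0 with NP, 4 with MET and 3 with PHEN. BCL2L11, which encodes the pro-apoptotic protein BIM, was -0.18 (SE 0.16) with MET, and the receptor gene ERBB3 was 0.25 (SE 0.16) with PHEN. Neither list had a member with an unadjusted p of 0.05 or less.

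Upstream of ERK, BRAF itself was higher with NP in 3 of 3 pairs, at 0.25 (SE 0.10, unadjusted p 0.0309, adjusted p 1). Being higher in all 3 pairs held for 14.3% of features with NP. MAPK3, which encodes ERK1, was 0.21 (SE 0.21) with MET and 0.18 (SE 0.21) with PHEN. All 7 RAF, MEK and ERK genes were above 0 with PHEN, between 0.04 and 0.18, and 2 of 7 were with NP. The median of all features was -0.03 with PHEN and -0.01 with NP. With PHEN 0 of the 7 had an unadjusted p of 0.05 or less in limma. Genes share arrays and scaling, and these counts were not tested. Among the RAS genes and their brakes, the GTPase-activating protein gene RASAL2 was 0.21 (SE 0.12) with PHEN, and 0 of the 6 measured genes had an unadjusted p of 0.05 or less. SOS1, the exchange factor of RAS, had the largest value of the receptors and adaptors with NP, 0.80 (SE 0.57), through 1 pair of 2.33 beside -0.35 and 0.41.

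Of the 10 target genes of MYC, 2 were above 0 with NP and 6 with MET, and MYC itself passed the test in neither comparison. Every target had a 95% interval within 1.5-fold of no change in all 3 comparisons. ODC1, the first enzyme of polyamine synthesis, was 0.10 (SE 0.14) with NP, and CAD, which starts pyrimidine synthesis, was 0.16 (SE 0.11) with MET and 0.17 (SE 0.11) with PHEN. MXD4, a MYC antagonist, was -0.53 (SE 0.27) with NP. Of the G1 genes beside CCND1, the cyclin gene CCNE2 was -0.34 with MET (SE 0.13, unadjusted p 0.0273, adjusted p 1) and -0.29 with PHEN (SE 0.13). The CDK inhibitor gene CDKN2C was -0.43 (SE 0.25) with NP and lower in 3 of 3 pairs, as were 18.8% of all features. The cyclin gene CCND3, named after its values were seen, was -0.23 with NP (SE 0.10, unadjusted p 0.0453, adjusted p 1).

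RPS6KA2 had the greatest absolute difference of all listed genes with each of the 3 compounds. It encodes RSK3, a kinase of the p90 ribosomal S6 kinase family that ERK phosphorylates directly. On the probe in the tests it was -2.68, -2.54 and -1.77 in DMSO and -1.28, -0.69 and -1.11 with NP. In W it was -2.90, -2.71 and -2.48, with MET -1.81, -1.74 and -1.53, and with PHEN -1.85, -1.48 and -1.03. No treated array overlapped its vehicle's arrays, and all 9 pairs were above 0, between 0.66 and 1.85.

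The fitted fold of RPS6KA2 was 2.46 with NP (95% interval 1.84 to 3.30), 2.00 with MET (1.49 to 2.68) and 2.36 with PHEN (1.76 to 3.17). It was called in none of the 3, with adjusted p-values of 0.0678, 0.843 and 0.146 and unadjusted ones of 4.27e-05, 0.00035 and 6.36e-05 in limma. By unadjusted p it ranked 16, 10 and 11 of 26826 features. MET and PHEN share their water controls. Over 13 other limma settings the NP difference was called in 2, with a slide term (adjusted p 0.0418) and with probes above background on all 15 arrays (0.0263). With normexp background correction the log2 differences were 0.68, 0.52 and 0.69.

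The other 2 RPS6KA2 probes, which carry the same accession, were dimmer and scattered more. On the second probe the group means were -5.52 in DMSO, -5.23 with NP, -4.85 in W, -4.72 with MET and -5.24 with PHEN. It was above background on 0 arrays of DMSO and NP, 2 of W, 1 of MET and 1 of PHEN. On the other dim probe the means were -5.15, -4.30, -3.40, -3.19 and -3.49, again with 0 arrays of DMSO and NP above background. That probe was above background on all 3 arrays of W, of MET and of PHEN. There it was -2.08, -4.05 and -4.06 in W, -2.05, -3.36 and -4.18 with MET and -3.31, -3.35 and -3.81 with PHEN. The MET and PHEN arrays overlapped the water arrays, and their rise on the probe in the tests was not seen here. With NP this probe was -4.48, -4.04 and -4.38 against -5.67, -4.29 and -5.48 in DMSO. Each NP array lay above the DMSO array of its number, but the groups overlapped and none of these arrays was above background. With the mean of a gene's probes the log2 differences were 1.08, 0.60 and 0.57 and the adjusted p-values 0.665, 1 and 1. The other 5 kinases of that list lay between -0.26 and 0.17 in all 3 comparisons. The low end was RPS6KA1, which encodes RSK1 and is named after its values were seen. With NP it was -0.26 (SE 0.10, unadjusted p 0.0211, adjusted p 0.973 in limma), lower in 3 of 3 pairs and without overlap, opposite in sign to RPS6KA2. Of all features, 18.8% were lower in all 3 pairs with NP and 6.41% did not overlap. With MET it was 0.17 and with PHEN 0.05.

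**Figure D3:**
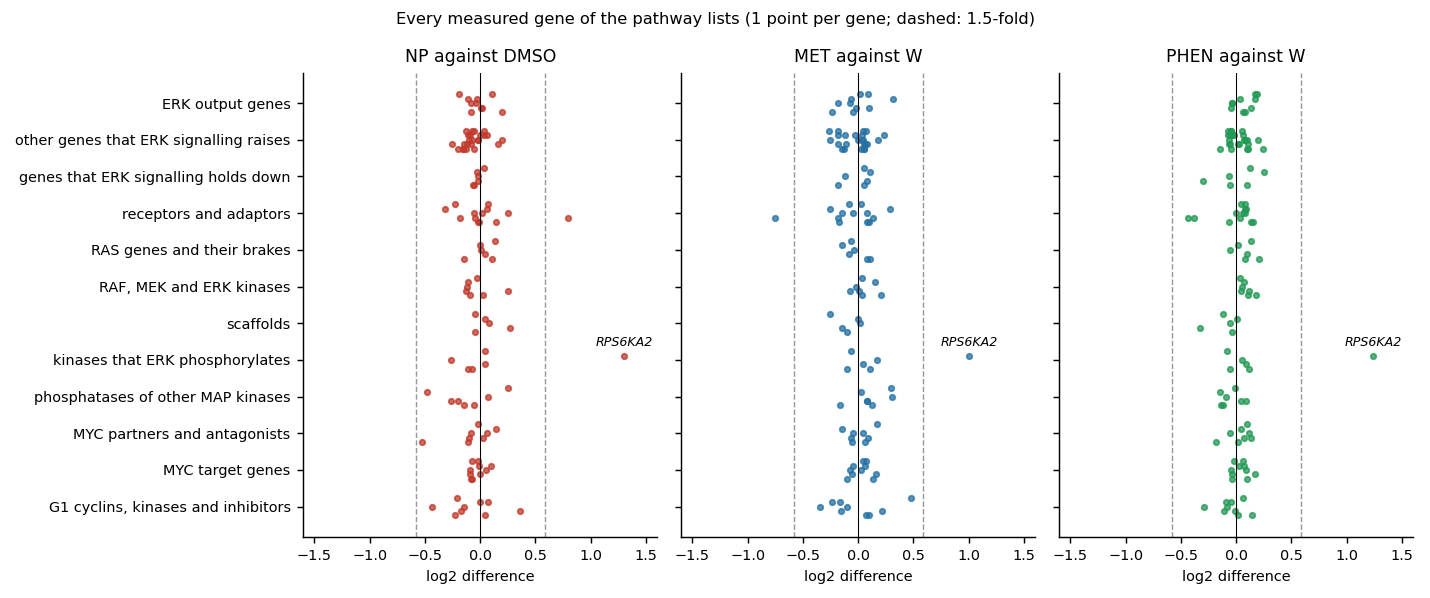
Log2 difference (horizontal axis) of every measured gene of the ERK output genes and of 11 lists of related genes (rows) in the 3 comparisons. Each point is 1 gene and dashed lines mark 1.5-fold. RPS6KA2 lies past the dashed line in each panel, at 1.30, 1.00 and 1.24. The only other points past a dashed line are SOS1 with NP (0.80) and EGFR with MET (-0.75), neither of which passed the test. EGFR was well above background on only 4 of the 15 arrays, with means of -4.18 in W and -4.93 with MET.

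**Figure D4:**
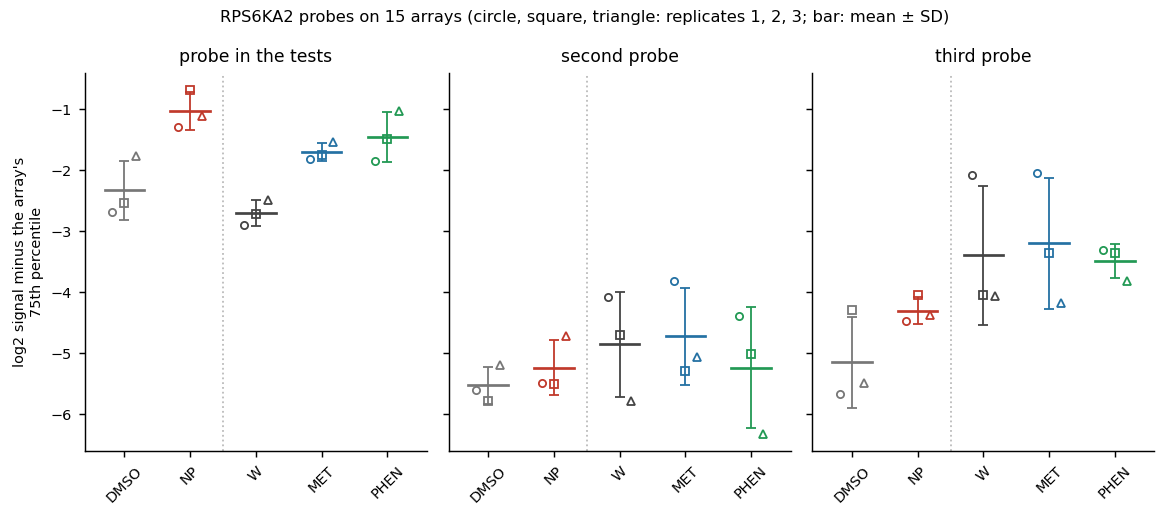
Log2 signal minus the array's 75th percentile for the 3 RPS6KA2 probes in the 5 groups. Symbols are replicates 1, 2 and 3 and bars the mean ± SD of 3 arrays; on the probe in the tests every treated array lies above its vehicle, and on the dimmer other probes the groups overlap.

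The vehicles themselves differed. The median absolute log2 difference of the 10 genes was 0.46 between DMSO and W, beside 0.08 with NP, 0.08 with MET and 0.07 with PHEN, and over all features it was 0.30, 0.11, 0.12 and 0.10. Of the 10 genes, 2 were called between DMSO and W, beside 10.6% of all features, and 6 had an adjusted p of at most 0.05, beside 17.2%. SPRED1 was 0.74 higher (SE 0.10, adjusted p 0.00419) and ETV5 0.87 higher (SE 0.19, adjusted p 0.0155) in DMSO on the log2 scale. PHLDA1 was 0.56 higher, while DUSP4 (-0.36), ETV4 (-0.58) and CCND1 (-0.56) were lower, all short of 1.5-fold. For these 6 genes the DMSO and water arrays did not overlap, as for 29.5% of all features. The median of all features was itself -0.12, and the median of the 10 genes lay 0.12 above it. The number called was 4 with normexp or quantile normalization, 1 without W replicate 1 and MET replicate 1, and 0 without replicate 1 or replicate 2. Same-numbered DMSO and water arrays did not deviate together (r of -0.19 to -0.03), and with no replicate block the 6 adjusted p-values were 0.00624 to 0.0356. DMSO and water arrays shared no slide, and the part of the slides in these differences cannot be told apart from that of the solvent.

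**Figure D5:**
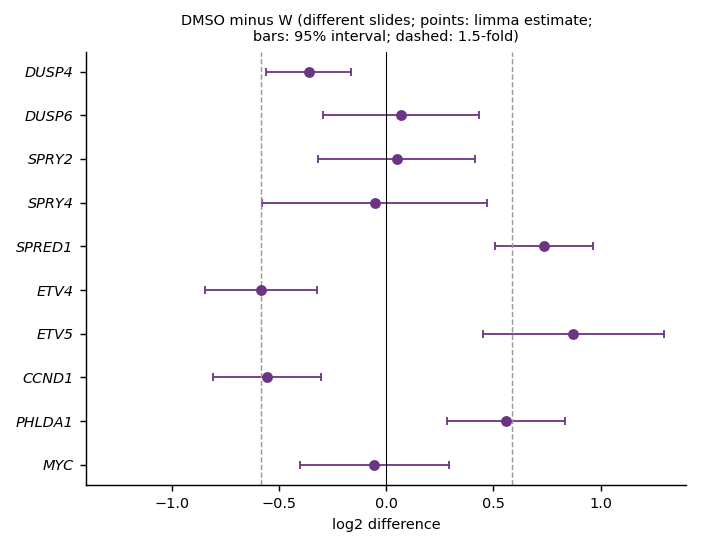
Log2 difference of each ERK output gene between DMSO and W. Points and bars are limma estimates with 95% intervals and dashed lines mark 1.5-fold; SPRED1 and ETV5 lie past the dashed line, and DUSP4, ETV4, CCND1 and PHLDA1 have intervals that leave out 0.

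Markers of the melanocyte lineage were detected, with log2 values far apart. Of 9 markers, 8 were well above background on all 15 arrays, among them MITF (4.02 to 5.06), PMEL (4.08 to 4.70), MLANA (-2.60 to 0.42) and TYRP1 (-2.65 to -0.90). TYR, the first enzyme of melanin synthesis, was on 13 arrays (median -2.63). Markers of other cell types passed the same rule in part, so detection alone does not tell the lineages apart. All 3 endothelial markers (PECAM1, CDH5 and VWF, medians -1.98, -1.85 and -2.52) were on 15 arrays, as were the leukocyte markers PTPRC (-1.55) and CD14 (-1.92), while CD3E was on 11. Of the fibroblast markers LUM (1.82) was on 15, DCN on 12 and COL1A2 on 2, and of the keratinocyte markers KRT14 (-0.26) was on 15 and KRT5 and KRT1 on 0. The summed linear signal of the 9 melanocyte markers, relative to the 75th percentile, was 174 to 203 in DMSO, 170 to 209 with NP, 173 to 211 in W, 178 to 214 with MET and 203 to 209 with PHEN. Each other type had 3 markers. Their highest sum on any array was 1.00 for keratinocytes, 4.87 for fibroblasts, 1.09 for leukocytes and 0.94 for endothelial cells. Sums over different probes and numbers of markers are not on the same scale, so they give no share of cells.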

How the data were processed

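Agilent SurePrint G3 human arrays were hybridised with Cy3-labelled total RNA of A2058 cells, 3 arrays for each of 5 groups. The deposited scanner files hold 1 background-subtracted intensity per spot (the processed signal), written by the authors' Agilent Feature Extraction (version 9.1 per the labels, 10.7.3.1 per the file headers). A deposited table of the authors' log2 values, which follow these signals and are set to a floor at the low end, served as an alternative. Control and outlier spots were left out, spots of a probe were averaged, and log2 intensity minus the array's 75th percentile was used. Of 33080 of 58201 probes with a RefSeq accession, 31104 matched a symbol in NCBI RefSeq's gene table. A probe was kept when some group had it well above background on each of its 3 arrays, with a value on at least 8 arrays in all, and the brightest kept probe stood for its gene, or accession where no symbol matched (26826 features). The number of arrays limits the precision.

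Limma 3.58.1 (R 4.3.3) fitted 5 groups with the replicate number as a block over 15 arrays, two-sided, with Benjamini-Hochberg adjustment. The series describes 3 independent experiments, and the replicate number was taken to mark them. Within each set of slides, deviations from the group means correlated at 0.33 to 0.85 between same-numbered arrays of a compound and its vehicle. In each set replicates 1 and 2 shared a slide and replicate 3 lay on the other. For replicate 3, number and slide thus cannot be told apart. For replicates 1 and 2 of NP and DMSO the same-number r was 0.64 and 0.62, and the highest r with another number 0.42 and 0.46. For MET and W these were 0.845 and 0.69, beside -0.27 and -0.09. Between DMSO and W same-numbered arrays correlated at -0.19 to -0.03, so the number is not shown to pair arrays across the sets. The script was tested on simulated data. DMSO and NP arrays lay on 2 slides and the others on 2 more. Alternatives were no block, a slide term, a block within each set of slides, normexp (offset 50), quantile normalization, the authors' table, other filters, the mean of a gene's probes, the methods' paired test and leaving out each replicate. Genes outside the 10 were picked from those called in a list, otherwise the one with the greatest absolute difference per comparison above background on all arrays. The 5 features most like the 10 were added. Not every gene that met this rule is named, among them HRAS (-0.15) and DUSP2 (-0.48) with NP. No gene of the lists of scaffolds and of phosphatases of other MAP kinases is named elsewhere. Of 12 markers of keratinocytes, fibroblasts, leukocytes and endothelial cells, 9 could be tested and 0 were called with a compound. RASA2 had no probe, and MYCN and CCND2 were not above background on all arrays of any group. The members and lists were chosen with earlier results of these data known.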

Additional observations from a re-analysis of the deposited data

Results flagged for a closer look

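MYC was singled out because all 3 pairs of arrays were higher with NP than with DMSO and all 3 were lower with MET than with W. Of all features, 14.3% were higher in all 3 pairs with NP and 20.2% were lower in all 3 with MET. The NP effect minus the MET effect was 0.44 on the log2 scale (SE 0.22, 95% interval -0.05 to 0.93), and limma's test of that difference gave an unadjusted p of 0.0738 and an adjusted p of 1, so it did not pass. The compounds were given at different doses in different solvents.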

How the results depend on the processing

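Of 420 fold changes of the 10 genes under the alternatives, 0 were called, the greatest absolute value was 0.35, 400 kept their sign and 20 turned. With normexp those were DUSP4 (-0.011), SPRY2 (0.018) and PHLDA1 (-0.026) for NP and PHLDA1 (0.0003) for MET, and with the mean of probes SPRY4 for PHEN (-0.060). On leaving out single replicates the sign varied for DUSP4 (-0.035 to 0.075), PHLDA1 (-0.035 to 0.042) and ETV4 (-0.19 to 0.030) with NP. It varied for SPRY4 (-0.036 to 0.21), ETV5 (-0.046 to 0.050), CCND1 (-0.13 to 0.053), PHLDA1 (-0.047 to 0.017) and the median of the 10 genes (-0.041 to 0.013) with MET. With PHEN it varied for DUSP6 (-0.23 to 0.15), SPRY2 (-0.064 to 0.12), SPRED1 (-0.11 to 0.055), PHLDA1 (-0.14 to 0.043) and MYC (-0.081 to 0.14). Leaving out W replicate 1 and MET replicate 1, chosen after seeing the data, turned CCND1 (0.053) and the median (0.013) for MET, and SPRY2 (-0.16) and MYC (-0.13) for PHEN. Between DMSO and W, 4 genes were called with normexp, 4 with quantile normalization, 1 without that pair of arrays and 0 to 2 on leaving out a replicate; a slide term could not be fitted beside this difference.

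The replicate block decided no call among the 10 genes. With no replicate block 0 were called for any compound, and features over the whole table numbered 3 for NP, 0 for MET and 0 for PHEN, beside 10, 0 and 7. With the block within each set of slides they numbered 52, 2 and 9, with a slide term 63, 2 and 16 and with normexp 27, 2 and 9. For NP they numbered 17 with quantile normalization and 25 with probes above background on all 15 arrays. Without each replicate in turn, or with no filter on dim probes, they numbered 0 for each compound. Without W replicate 1 and MET replicate 1 they numbered 2, 0 and 0. The methods' paired test called 214, 124 and 168 features at unadjusted p-values and 0 after adjustment. The cause of these shifts was not tested.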
